A study of Arabidopsis thaliana with 12 samples.

Results

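The genes described here are 34 nuclear genes of Arabidopsis thaliana for the proteins that carry electrons and make ATP in the chloroplast membrane. They were chosen by locus identifier from a list of photosystem I and photosystem II subunits, cytochrome b6f, plastocyanin, ferredoxin, ferredoxin-NADP reductase (FNR) and plastid ATPase subunits, without the light-harvesting antenna. The rule used no measured value, but the members were chosen with earlier results of these data known. They are 34 of the 18542 genes in the deposited tables. Of them, 13 were listed with photosystem I, 11 with photosystem II, 7 with electron transport and 3 with the ATPase. One of the 13, CURT1B, is a thylakoid curvature protein that was once named as a photosystem I subunit. Counts in every library were at hand for 33 members and for 17751 genes in all, and the remaining member, PSBQ2, is described from its raw counts.

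Photosystem II takes electrons from water by means of an oxygen-evolving complex that the PSBO, PSBP and PSBQ proteins surround. The electrons pass through cytochrome b6f and the copper protein plastocyanin to photosystem I, which hands them to ferredoxin, and FNR then makes NADPH, while the proton gradient drives the ATPase. The reaction centres are built from plastid-encoded and nuclear-encoded subunits, and the nuclear genes are turned on by light as a seedling greens. An oilseed embryo loses most of its photosynthetic machinery as it dries and rebuilds it after germination.

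Polyadenylated RNA was sequenced from germinating seeds of the wild type Col-0 and of the lines ago4-2 and ago4-3, which carry mutant alleles of AGO4, a gene for an ARGONAUTE protein of RNA-directed DNA methylation. Each line germinated on MS 1X (control) or on MS plus 100 mM NaCl, under a day of 16 h light and 8 h dark at 21 °C. Each of the 6 groups had 2 libraries, described as biological replicates with no word on separate seed batches, so the p-values measure the spread between these samples. The age of the seeds at harvest and the nature of each allele are not given in the sources used here. All libraries are whole germinating seeds, so fewer cells of a type and less RNA per cell cannot be told apart.

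The libraries held 18168653 to 47517007 counts, of which the members took 0.144% to 0.332%. AGO4 transcript stood at 45.7 ± 1.54 CPM (TMM-scaled CPM, that is, counts relative to library size; mean ± SD, n = 2) in Col-0 control, 44.8 ± 6.13 in ago4-2 control and 1.25 ± 0.136 in ago4-3 control, so the transcript checks the label of ago4-3 and not that of ago4-2. Seed storage transcripts (8 cruciferin and albumin genes, all measured) summed to 150.03 to 888 CPM in Col-0 libraries, 1982 to 11437 in ago4-2 and 151 to 1568 in ago4-3. The ago4-2 control pair differed most between its own libraries, with 16028.5 and 1153 CPM in plastid-encoded genes.

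Upstream sequences are shown for PSAD1, which had the smallest adjusted p for salt in Col-0, for PSBO1, which fell most under salt in ago4-2, and for the PSBQ pair, whose copies were both lower in ago4-2 than in Col-0 under NaCl. Each is the stretch within 250 bases before the annotated start that no other annotated gene overlaps, read 5′ to 3′ on the gene's strand from RefSeq TAIR10.1. PSAD1 is chr4:1230165-1230414 (minus strand), PSBO1 chr5:26568471-26568571 (plus strand), PSBQ1 chr4:11334169-11334351 (plus strand) and PSBQ2 chr4:2673244-2673493 (minus strand). Capitals mark a G-box (CACGTG), an I-box (GATAAG), the letters CCAATC or the letters ACGTGTC, on either strand, and the last can overlap a G-box.
PSAD1: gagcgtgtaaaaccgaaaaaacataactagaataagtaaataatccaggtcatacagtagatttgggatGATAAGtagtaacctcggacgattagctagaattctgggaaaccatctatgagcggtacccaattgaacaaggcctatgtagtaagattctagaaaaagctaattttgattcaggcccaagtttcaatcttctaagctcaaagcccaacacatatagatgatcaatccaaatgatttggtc
PSBO1: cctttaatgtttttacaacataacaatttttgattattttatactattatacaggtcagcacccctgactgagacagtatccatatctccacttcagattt
PSBQ1: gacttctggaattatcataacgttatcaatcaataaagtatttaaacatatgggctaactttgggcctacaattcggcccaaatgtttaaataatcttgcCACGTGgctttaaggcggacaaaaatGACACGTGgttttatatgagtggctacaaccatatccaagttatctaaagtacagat
PSBQ2: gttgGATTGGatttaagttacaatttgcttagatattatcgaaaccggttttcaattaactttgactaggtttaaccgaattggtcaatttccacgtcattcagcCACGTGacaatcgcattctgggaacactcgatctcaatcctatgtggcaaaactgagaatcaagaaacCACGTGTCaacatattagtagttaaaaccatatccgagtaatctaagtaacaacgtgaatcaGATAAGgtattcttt

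The PSBO1 stretch is short because a tRNA gene (AT5G66568) lies at bases 26568397 to 26568470. PSBO1 held no match in the full 250 bases, PSAD1 held an I-box and PSBQ1 and PSBQ2 each held G-boxes. Over all 34 members and full 250-base windows, 6 (17.6%) held a G-box against 6.49% of 27437 protein-coding genes. An I-box was in 9 members (26.5%, against 12.3%), CCAATC in 4 (11.8%, against 10.2%) and ACGTGTC in 5 (14.7%, against 3.68%). The 6 with a G-box were PSAE2, PSAH2, PSBQ1, PSBQ2, PSBTN and ATPD. In 18 of the 34 windows another annotated gene overlaps, so a match is a description of letters and not of a site.

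On the scale of CPM per kilobase of exon, which takes account of exon length, the members spanned a wide range in Col-0 control. The highest were the ferredoxin FED2 at 326, the small photosystem II subunit PSBX at 159, CURT1B at 109, the cytochrome b6f subunit PETM at 105 and the ATPase subunit ATPG at 103 CPM per kilobase. The lowest were PSAH1 at 0.719 and the plastocyanin gene PETE1 at 0.991. The 12 photosystem I subunits other than CURT1B lay between 0.719 and 25.7 CPM per kilobase, and the 10 photosystem II genes between 20.7 and 159. Some photosystem I genes overlap another gene, by 788 bases for PSAH1, 479 for PSAG and 436 for PSAE1. How reads there were counted is not known, and its part in these levels was not tested. FED2 was also the highest in both mutants on control medium, and the lowest was PSAK in ago4-2 and PSAH1 in ago4-3.

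In Col-0, salt raised 29 of the 33 fitted members and lowered 0. Over all 17751 genes tested, the background of calls was 10.7% higher and 7.42% lower. The median log2 fold change was 1.06 for the members and 0.01 for all genes, and all 33 fold changes were above 0. By complex, 13 of 13 photosystem I members, 9 of 10 photosystem II members, 4 of 7 electron transport members and 3 of 3 ATPase members rose, with median log2 fold changes of 1.73, 0.93, 0.41 and 0.58. Calls here and below are edgeR quasi-likelihood tests at a Benjamini-Hochberg adjusted p under 0.05, and errors on log2 fold changes are SE.

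In ago4-2, salt raised 1 member and lowered 14, where 17.4% of all genes were higher and 17.8% lower. The median of the members was −0.33. Those lower were 4 of 13 photosystem I members, 5 of 10 in photosystem II, 5 of 7 in electron transport and 0 of 3 in the ATPase. In ago4-3, 19 members rose and 1 fell, against backgrounds of 12.6% and 10.4%, with a median of 0.48. The ago4-3 rises were 11 of 13 in photosystem I, 6 of 10 in photosystem II, 1 of 7 in electron transport and 1 of 3 in the ATPase. With ago4-2 NaCl replicate 1 left out, the count lowered in ago4-2 was 9. The count raised in ago4-3 was 12 with ago4-3 control replicate 1 left out and 11 with ago4-3 NaCl replicate 1 left out.

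**Figure D1:**
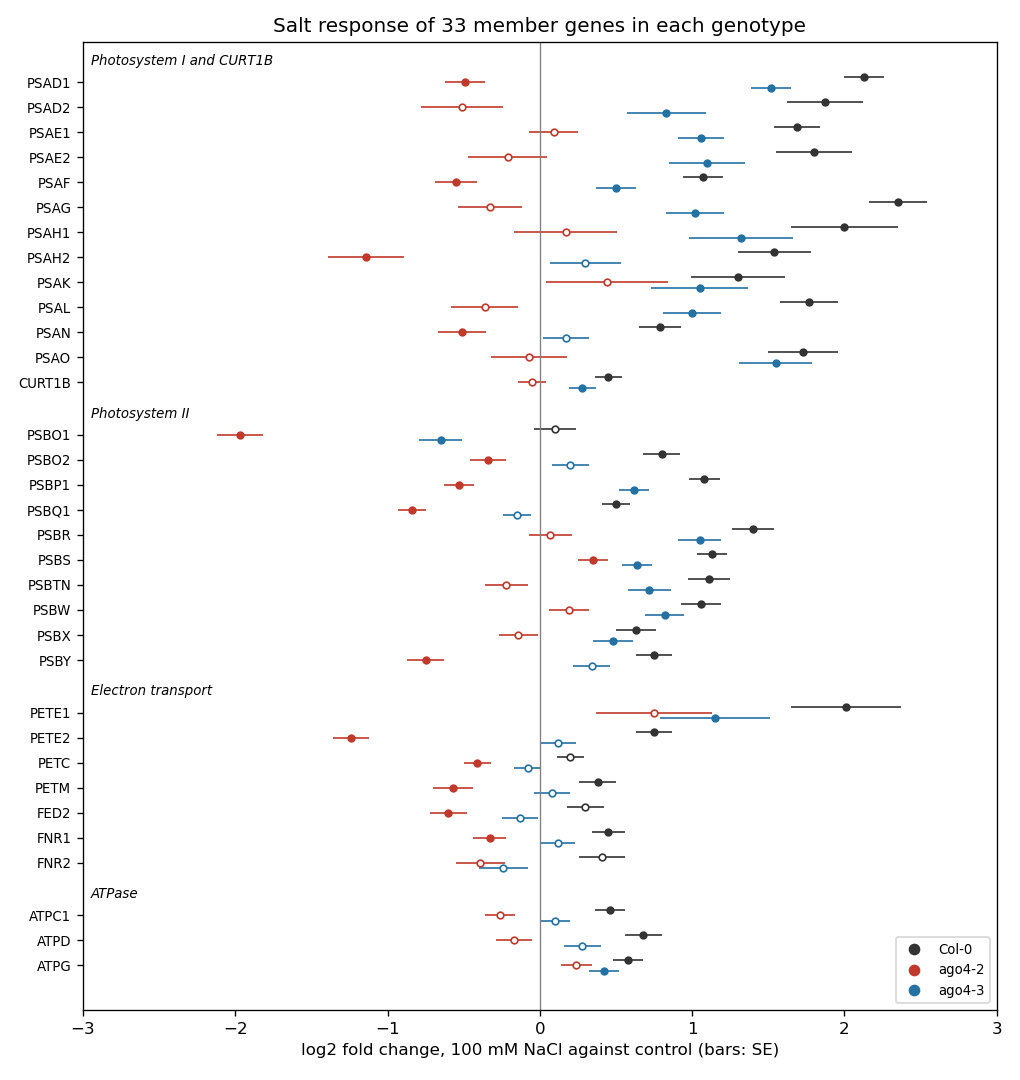
Log2 fold change of 100 mM NaCl against control (x axis; bars are SE) for the 33 fitted members, by complex, in Col-0 (grey), ago4-2 (red) and ago4-3 (blue). Filled points passed an adjusted p of 0.05 and open points did not: 29 grey points are filled to the right of 0, against 1 red and 19 blue.

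Storage transcripts, which mark reserves of the dry seed, were higher in ago4-2 than in Col-0. Their summed level went from 179 ± 40.6 to 733 ± 219 CPM in Col-0, from 2071 ± 126 to 10832 ± 855 in ago4-2 and from 231 ± 113 to 1522 ± 64.9 in ago4-3 (means ± SD, n = 2, no test of the sum). As single genes, 1 of the 8 was higher and 1 lower under salt in Col-0, 3 and 2 in ago4-2, and 3 and 1 in ago4-3, with median log2 fold changes of 0.01, −0.34 and −0.41. The sums were carried by few genes, and the cruciferin gene CRA1 rose by 3.18 ± 0.22, 3.28 ± 0.22 and 3.82 ± 0.23 in the 3 lines. Against Col-0 in control, 8 of 8 were higher in ago4-2 and 0 of 8 in ago4-3. Endosperm markers (2 of 4 measured) summed to 66.1 to 94.4 CPM in Col-0, 117 to 207 in ago4-2 and 39.4 to 69.8 in ago4-3. Root hair markers (2 of 5 measured) summed to 8.43 to 10.9 CPM in control libraries and 17.2 to 24.4 in NaCl libraries. Stomatal lineage markers (2 of 3) summed to 6.68 to 10.8 CPM in Col-0, 11.6 to 14.2 in ago4-2 and 6.24 to 9.95 in ago4-3. The endosperm and stomatal sums each held genes that moved apart. Under salt in ago4-2, EPR1 of the endosperm fell (−1.54 ± 0.29) and MAN7 rose (0.82 ± 0.11). Against Col-0 in control, ago4-2 had more of the stomatal MUTE (2.75 ± 0.25), and SPCH was not called (0.14 ± 0.21). Under NaCl it had more MUTE (1.03 ± 0.22) and less SPCH (−0.65 ± 0.21). The part of these markers in the results on members was not tested.

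On the stromal side of photosystem I, PSAD and PSAE form the docking site of ferredoxin, and each is encoded by a pair of genes. PSAD1 (AT4G02770) stood at 16.2 and 16.2 CPM in the Col-0 control libraries and 69.9 and 72.2 in Col-0 NaCl. In ago4-2 it had 28.4 and 33.5 CPM in control and 18.5 and 25.5 in NaCl, and in ago4-3 22.0 and 23.5 in control and 65.5 and 65.4 in NaCl. The NaCl libraries lay above the control libraries in Col-0 and ago4-3 and below them in ago4-2, with no overlap in any line. The log2 fold changes were 2.13 ± 0.13 in Col-0 (4.38-fold, adjusted p = 2.94e-07), 1.52 ± 0.13 in ago4-3 (adjusted p = 1.57e-06) and −0.49 ± 0.13 in ago4-2 (adjusted p = 0.0106). The ago4-2 call was lost when ago4-2 control replicate 2 or ago4-2 NaCl replicate 1 was left out, and when fitted on its own groups.

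PSAE1 (AT4G28750) had 11.6 and 9.94 CPM in Col-0 control and 35.4 and 34.3 in Col-0 NaCl. Its ago4-2 values were 12.5 and 11.2 in control and 11.3 and 13.7 in NaCl, and those of ago4-3 were 16.4 and 15.7, then 38.6 and 28.7. It rose by 1.69 ± 0.15 in Col-0 (adjusted p = 4.01e-06) and by 1.06 ± 0.15 in ago4-3 (adjusted p = 0.000154) on the log2 scale, while the ago4-2 libraries of both media overlapped (0.09 ± 0.16, adjusted p = 0.709). PSAD2 and PSAE2 were the less abundant copies. PSAD2 had 1.42 and 1.66 CPM in Col-0 control and 5.98 and 5.19 in NaCl, with 2.58 and 2.00, then 1.43 and 1.73 in ago4-2, and 1.88 and 1.89, then 3.69 and 3.02 in ago4-3. PSAE2 had 2.26 and 2.11 CPM in Col-0 control and 7.36 and 8.01 in NaCl, with 3.04 and 4.28, then 2.34 and 4.0 in ago4-2, and 2.87 and 3.04, then 6.32 and 6.38 in ago4-3. Both rose in Col-0 (1.87 ± 0.25 and 1.80 ± 0.25) and in ago4-3 (0.83 ± 0.26 and 1.1 ± 0.25) and were not called in ago4-2 (−0.51 ± 0.27 and −0.21 ± 0.26). In ago4-3 the PSAD2 call was lost without any one of 4 libraries, among them both ago4-3 control libraries.

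PSAG and PSAK sit on the antenna side of the complex. PSAG (AT1G55670) had the largest rise of all members in Col-0, from 4.72 and 3.81 CPM to 22.0 and 22.1, a log2 fold change of 2.35 ± 0.19 (5.09-fold, adjusted p = 1.66e-06). It stood at 6.59 and 6.35 CPM in ago4-2 control and 3.85 and 6.34 in ago4-2 NaCl (−0.33 ± 0.21, adjusted p = 0.242), and at 8.12 and 9.34, then 16.3 and 18.9 in ago4-3 (1.02 ± 0.19, adjusted p = 0.00126). The NaCl libraries were thus higher than the control libraries in Col-0 and ago4-3 and lower in ago4-2, where they nearly met. PSAK ranged from 0.517 to 4.67 CPM over the libraries, with log2 fold changes of 1.3 ± 0.31 in Col-0, 0.44 ± 0.40 in ago4-2 (not called) and 1.05 ± 0.32 in ago4-3. Its Col-0 call was lost with Col-0 control replicate 2 or Col-0 NaCl replicate 1 left out, and its ago4-3 call with ago4-3 control replicate 2 or ago4-3 NaCl replicate 1 left out.

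The subunits PSAH, PSAL and PSAO form the side at which light-harvesting complex II can dock. PSAH1 had 0.960 and 0.911 CPM in Col-0 control and 3.81 and 3.72 in NaCl, 1.55 and 3.05, then 1.86 and 3.47 in ago4-2, and 1.91 and 2.1, then 5.83 and 4.19 in ago4-3. PSAH2 (AT1G52230) had 2.03 and 2.07 CPM in Col-0 control and 6.09 and 5.88 in NaCl, 3.62 and 5.57, then 2.25 and 2.00 in ago4-2, and 4.96 and 4.41, then 6.61 and 5.01 in ago4-3. Under salt the ago4-2 libraries were the lowest of NaCl for PSAH2, close to the Col-0 control values, while those of PSAH1 overlapped their own controls. PSAH2 fell in ago4-2 by 1.14 ± 0.25 on the log2 scale (adjusted p = 0.00282, lost without ago4-2 control replicate 2) and rose in Col-0 by 1.54 ± 0.24. PSAH1 rose in Col-0 by 2.0 ± 0.35 and in ago4-3 by 1.32 ± 0.34, the latter lost when any ago4-3 library but NaCl replicate 2 was left out. PSAL went from 4.64 to 16.0 CPM per kilobase in Col-0 (1.77 ± 0.19), from 3.58 to 2.79 in ago4-2 (−0.36 ± 0.22, not called) and from 7.06 to 14.0 in ago4-3 (1.00 ± 0.19). PSAO had log2 fold changes of 1.73 ± 0.23 in Col-0, −0.07 ± 0.25 in ago4-2 and 1.55 ± 0.24 in ago4-3.

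PSAF and PSAN, on the lumenal side, bind plastocyanin. Salt raised both in Col-0 (1.07 ± 0.13 and 0.79 ± 0.14) and lowered both in ago4-2 (−0.55 ± 0.14 and −0.51 ± 0.16), and PSAF rose in ago4-3 (0.50 ± 0.13) while PSAN was not called there (0.17 ± 0.15). The ago4-2 calls of PSAF and PSAN and the ago4-3 call of PSAF were each lost with some single library left out. CURT1B, which bends the edges of the thylakoid stacks, had 122 to 181 CPM over all libraries, with log2 fold changes of 0.45 ± 0.09 in Col-0, −0.05 ± 0.09 in ago4-2 (not called) and 0.28 ± 0.09 in ago4-3. The ago4-3 call was lost with any of 7 single libraries left out, among them ago4-3 NaCl replicate 1 (adjusted p = 0.341).

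In photosystem II, the genes of the oxygen-evolving proteins differed in their salt responses. PSBO1 (AT5G66570) and PSBO2 (AT3G50820) encode the same manganese-stabilising protein in 2 copies. PSBO1 had 35.8 and 36.8 CPM in Col-0 control and 35.5 and 42.3 in Col-0 NaCl, 27.5 and 34.5, then 7.88 and 8.07 in ago4-2, and 39.1 and 50.1, then 27.8 and 29.0 in ago4-3. The Col-0 libraries of both media overlapped, whereas in both mutants the NaCl libraries lay below the control libraries, and the ago4-2 NaCl pair was the lowest of the 6 groups. The log2 fold change was 0.10 ± 0.14 in Col-0 (adjusted p = 0.673), −1.97 ± 0.15 in ago4-2 (adjusted p = 3.05e-07) and −0.65 ± 0.14 in ago4-3 (adjusted p = 0.00384, lost without ago4-3 control replicate 2). PSBO1 was the 1 member that fell in ago4-3.

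PSBO2 had 27.1 and 27.7 CPM in Col-0 control and 44.2 and 50.9 in Col-0 NaCl, 39.8 and 40.9, then 28.8 and 34.8 in ago4-2, and 37.6 and 43.5, then 47.3 and 46.0 in ago4-3. It rose in Col-0 by 0.80 ± 0.12 on the log2 scale (adjusted p = 0.000251), fell in ago4-2 by 0.34 ± 0.12 (adjusted p = 0.0349) and was not called in ago4-3 (0.20 ± 0.12, adjusted p = 0.228). The ago4-2 call was lost without any one of 5 libraries, among them ago4-2 NaCl replicate 1 (adjusted p = 0.288).

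PSBP1, another extrinsic protein of the complex, had 72.0 and 72.5 CPM in Col-0 control and 143 and 163 in Col-0 NaCl, 94.1 and 94.4, then 62.3 and 67.8 in ago4-2, and 81.5 and 85.0, then 136 and 119.7 in ago4-3. Its libraries on NaCl stood above control in Col-0 and ago4-3 and below control in ago4-2, and its log2 fold changes were 1.08 ± 0.10 (adjusted p = 3.26e-06), 0.62 ± 0.10 (adjusted p = 0.000291) and −0.53 ± 0.10 (adjusted p = 0.000637).

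PSBQ1 (AT4G21280) had 64.5 and 65.0 CPM in Col-0 control and 88.5 and 94.1 in Col-0 NaCl, 68.5 and 64.9, then 35.5 and 38.7 in ago4-2, and 74.2 and 73.4, then 68.9 and 64.0 in ago4-3. The 3 control groups were close together, and under salt Col-0 was highest, ago4-3 next and ago4-2 lowest, with no overlap. Salt raised it in Col-0 by 0.50 ± 0.09 (adjusted p = 0.00106) and lowered it in ago4-2 by 0.84 ± 0.09 (adjusted p = 5.73e-06), and in ago4-3 the value was −0.15 ± 0.09 (adjusted p = 0.232). Its paralog PSBQ2 was rare, with 18 and 16 counts in the Col-0 control libraries (0.379 and 0.736 CPM by library total), 46 and 50 in Col-0 NaCl (1.48 and 1.46), 4 and 6 in ago4-2 NaCl (0.152 and 0.179), 18 and 20 in ago4-3 control (0.651 and 1.04) and 22 and 40 in ago4-3 NaCl (1.07 and 1.35). No PSBQ2 value for ago4-2 control was at hand, so it was not analysed in that group and has no fit across all groups. In the authors' deposited table it was higher under salt in Col-0 (log2 fold change 1.59, false discovery rate 2.26e-05), and in the authors' deposited table of ago4-2 against Col-0 under NaCl it was lower (−2.86, false discovery rate 1.05e-10). The authors' values for ago4-3 were 0.61 under salt (false discovery rate 0.275) and −0.16 against Col-0 under NaCl (false discovery rate 0.948). Against ago4-2 under NaCl, PSBQ2 was higher in ago4-3 (2.7, false discovery rate 1.99e-08). Every PSBQ2 count above is even, so read pairs may have been counted as 2 reads, and the authors' false discovery rates may then be too small. They come from the authors' own fits and not from the fit used for the other members.

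PSBR supports the binding of PSBP. It had 56.4 and 52.1 CPM in Col-0 control and 125 and 161 in Col-0 NaCl, 95.8 and 82.0, then 82.0 and 104 in ago4-2, and 63.7 and 65.4, then 145 and 123 in ago4-3. It rose in Col-0 (1.4 ± 0.14, adjusted p = 1.01e-05) and in ago4-3 (1.05 ± 0.14, adjusted p = 7.4e-05), and its ago4-2 libraries of both media overlapped (0.07 ± 0.14, adjusted p = 0.749).

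PSBS senses lumen acidity and sets the harmless loss of excess light energy as heat. It had 147 and 147 CPM in Col-0 control and 321 and 325 in Col-0 NaCl, 118 and 133, then 153 and 168 in ago4-2, and 195 and 195, then 322 and 285 in ago4-3. The NaCl libraries were above the control libraries in all 3 lines, by 1.13 ± 0.10 in Col-0 (adjusted p = 3.26e-06), 0.35 ± 0.10 in ago4-2 (adjusted p = 0.0133) and 0.64 ± 0.10 in ago4-3 (adjusted p = 0.000327) on the log2 scale. It was the 1 member that rose in ago4-2, and leaving out ago4-2 control replicate 1 or ago4-2 NaCl replicate 2 ended that call.

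Among the small subunits, PSBTN, PSBW, PSBX and PSBY rose in Col-0 with log2 fold changes of 1.11 ± 0.14, 1.06 ± 0.13, 0.63 ± 0.13 and 0.75 ± 0.12. The PSBX call in Col-0 was lost when Col-0 control replicate 2 was left out (adjusted p = 0.0529). PSBTN, PSBW and PSBX also rose in ago4-3 (0.72 ± 0.14, 0.82 ± 0.13 and 0.48 ± 0.13), the PSBX call being lost when ago4-3 control replicate 1 or ago4-3 NaCl replicate 1 was left out, and PSBY was just outside the threshold there (0.34 ± 0.12, adjusted p = 0.0533). PSBY fell in ago4-2 (−0.75 ± 0.12, adjusted p = 0.000298), while the other 3 were not called (−0.22, 0.19 and −0.14).

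**Figure D2:**
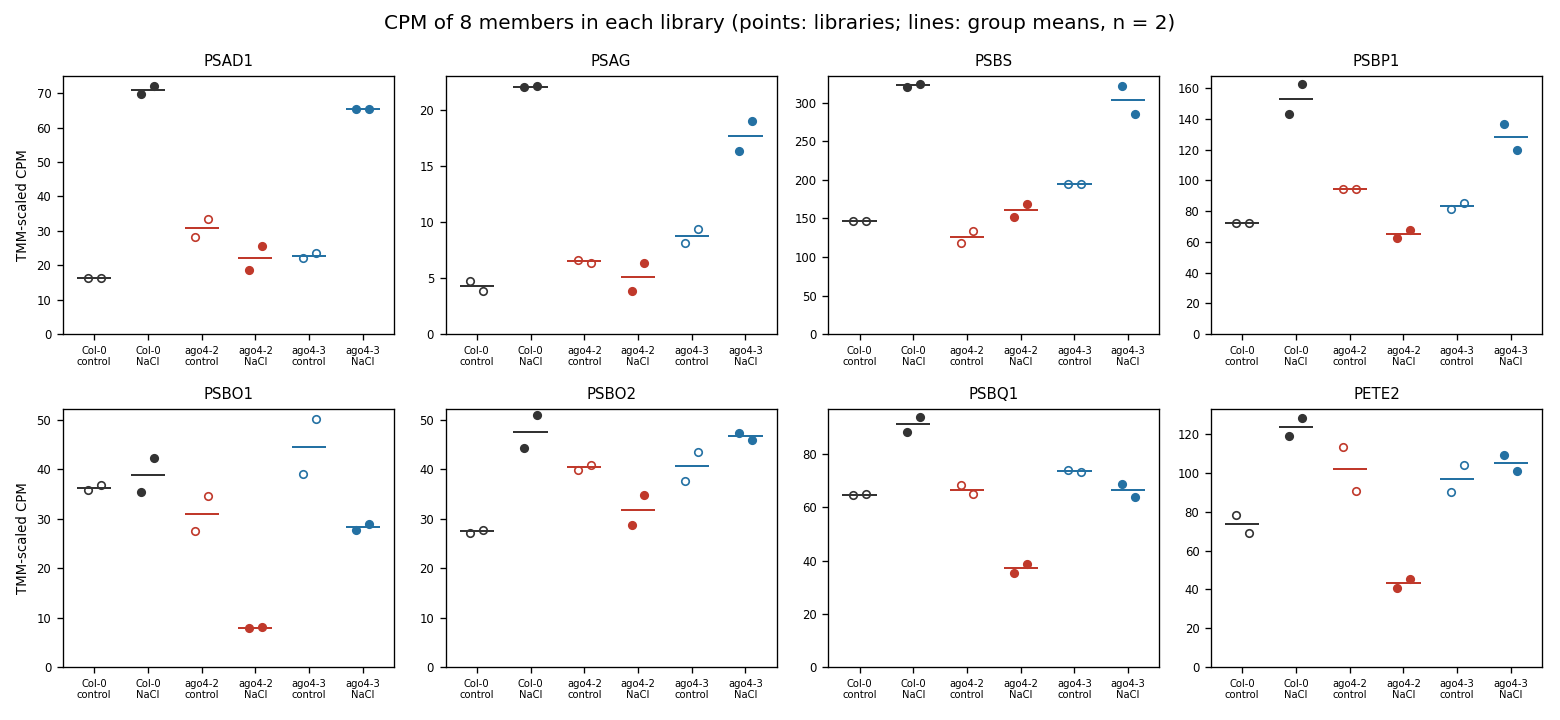
TMM-scaled CPM (y axis, from 0) of 8 members in each of the 12 libraries by genotype and medium (x axis); open points are control, filled points NaCl, and lines are group means of 2 libraries. PSAD1 and PSAG are high on NaCl in Col-0 and ago4-3 and not in ago4-2, and PSBO1 is lowest on NaCl in ago4-2, at 7.88 and 8.07 CPM.

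Among the soluble carriers and cytochrome b6f, the salt responses in Col-0 ran from 0.20 for PETC to 2.01 for PETE1 on the log2 scale. PETE2 (AT1G20340), the main plastocyanin gene, had 78.4 and 69.0 CPM in Col-0 control and 119 and 129 in Col-0 NaCl, 113 and 90.5, then 40.9 and 45.4 in ago4-2, and 90.2 and 104, then 109 and 101 in ago4-3. The ago4-2 libraries were the lowest of all on NaCl, and those of ago4-3 overlapped between the media. PETE2 rose by 0.75 ± 0.12 in Col-0 (adjusted p = 0.000468), fell by 1.24 ± 0.12 in ago4-2 (adjusted p = 2.61e-06) and was not called in ago4-3 (0.12 ± 0.12, adjusted p = 0.523), on the log2 scale. PETE1, the minor copy, had 1.5 and 0.58 CPM in Col-0 control and 4.30 and 4.70 in NaCl, 1.16 and 1.70, then 2.12 and 2.80 in ago4-2, and 1.56 and 1.99, then 4.67 and 3.22 in ago4-3. Its NaCl libraries were higher in every line, with log2 fold changes of 2.01 ± 0.36 in Col-0 (adjusted p = 0.00119), 0.75 ± 0.38 in ago4-2 (adjusted p = 0.143) and 1.15 ± 0.36 in ago4-3 (adjusted p = 0.0332, lost without either ago4-3 control library or ago4-3 NaCl replicate 1).

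PETC, the Rieske iron-sulfur protein, and PETM are the nuclear cytochrome b6f subunits. PETC fell in ago4-2 (−0.41 ± 0.09, adjusted p = 0.00395), with uncalled values of 0.20 ± 0.09 in Col-0 and −0.08 ± 0.09 in ago4-3. PETM rose in Col-0 (0.38 ± 0.12, adjusted p = 0.0443, lost with any of 7 single libraries left out) and fell in ago4-2 (−0.57 ± 0.13). FED2, the main leaf ferredoxin, ranged from 194 to 429 CPM and fell in ago4-2 (−0.60 ± 0.12, adjusted p = 0.00128), with 0.30 ± 0.12 in Col-0 (adjusted p = 0.0974) and −0.13 ± 0.12 in ago4-3 (adjusted p = 0.483).

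The FNR genes encode the leaf forms of the last enzyme in the chain. FNR1 had 42.1 and 42.4 CPM in Col-0 control and 56.5 and 59.2 in Col-0 NaCl, 40.6 and 36.1, then 29.5 and 31.4 in ago4-2, and 43.2 and 39.8, then 49.4 and 41.0 in ago4-3. FNR2 had 29.2 and 28.7 CPM in Col-0 control and 41.8 and 35.1 in Col-0 NaCl, 15.0 and 22.6, then 13.9 and 15.1 in ago4-2, and 34.6 and 32.5, then 30.2 and 26.6 in ago4-3. FNR2 was low in ago4-2 on both media, and FNR1 was low in ago4-2 on NaCl. FNR1 rose in Col-0 (0.45 ± 0.11, adjusted p = 0.00817) and fell in ago4-2 (−0.33 ± 0.11, adjusted p = 0.0316), each call being lost with single libraries left out, and FNR2 was not called for salt in any line (0.41 ± 0.15, −0.39 ± 0.16 and −0.24 ± 0.16).

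The ATPase members ATPC1 (gamma) and ATPD (delta) belong to the catalytic head and ATPG to the membrane part. They rose in Col-0 by 0.46 ± 0.10, 0.68 ± 0.12 and 0.58 ± 0.10, and were not called in ago4-2 (−0.26 ± 0.10, −0.17 ± 0.12 and 0.24 ± 0.10). The Col-0 call of ATPC1 was lost with Col-0 control replicate 1 left out (adjusted p = 0.0729). In ago4-3 ATPG rose (0.42 ± 0.10, adjusted p = 0.00998, lost when either ago4-3 control library or ago4-3 NaCl replicate 1 was left out), while ATPC1 and ATPD were not called (0.10 ± 0.10 and 0.28 ± 0.12). Their levels over all libraries were 112 to 169.8, 95.6 to 169 and 111 to 178 CPM.

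By level in Col-0 control, the 9 members under 10 CPM had a median salt log2 fold change in Col-0 of 1.80, with a range of 1.3 to 2.35. The 18 members from 10 to 100 CPM had a median of 0.77, and the 6 at 100 CPM or more a median of 0.52. The same control libraries enter the level and the fold change, so this is a description only.

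As sums, the 13 photosystem I members went from 219 ± 3.25 to 443 ± 12.1 CPM in Col-0, from 243 ± 0.101 to 212 ± 23.3 in ago4-2 and from 263 ± 2.62 to 404 ± 37.6 in ago4-3. The 10 photosystem II members went from 684 ± 12.3 to 1299 ± 136, from 795 ± 25.5 to 699.9 ± 51.4 and from 835 ± 43.1 to 1198 ± 113 CPM. The 7 electron transport members went from 660.2 ± 42.0 to 855 ± 70.4, from 658 ± 62.1 to 429 ± 13.3 and from 736 ± 11.1 to 716 ± 61.5 CPM. The 3 ATPase members went from 333 ± 1.34 to 492 ± 34.1, from 387 ± 24.2 to 372 ± 12.4 and from 386 ± 32.4 to 462 ± 34.4 CPM. The sum of all 33 was 1.63 times the control level under NaCl in Col-0, 0.822 times in ago4-2 and 1.25 times in ago4-3. Abundant genes dominate such sums, and they were not tested.

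**Figure D3:**
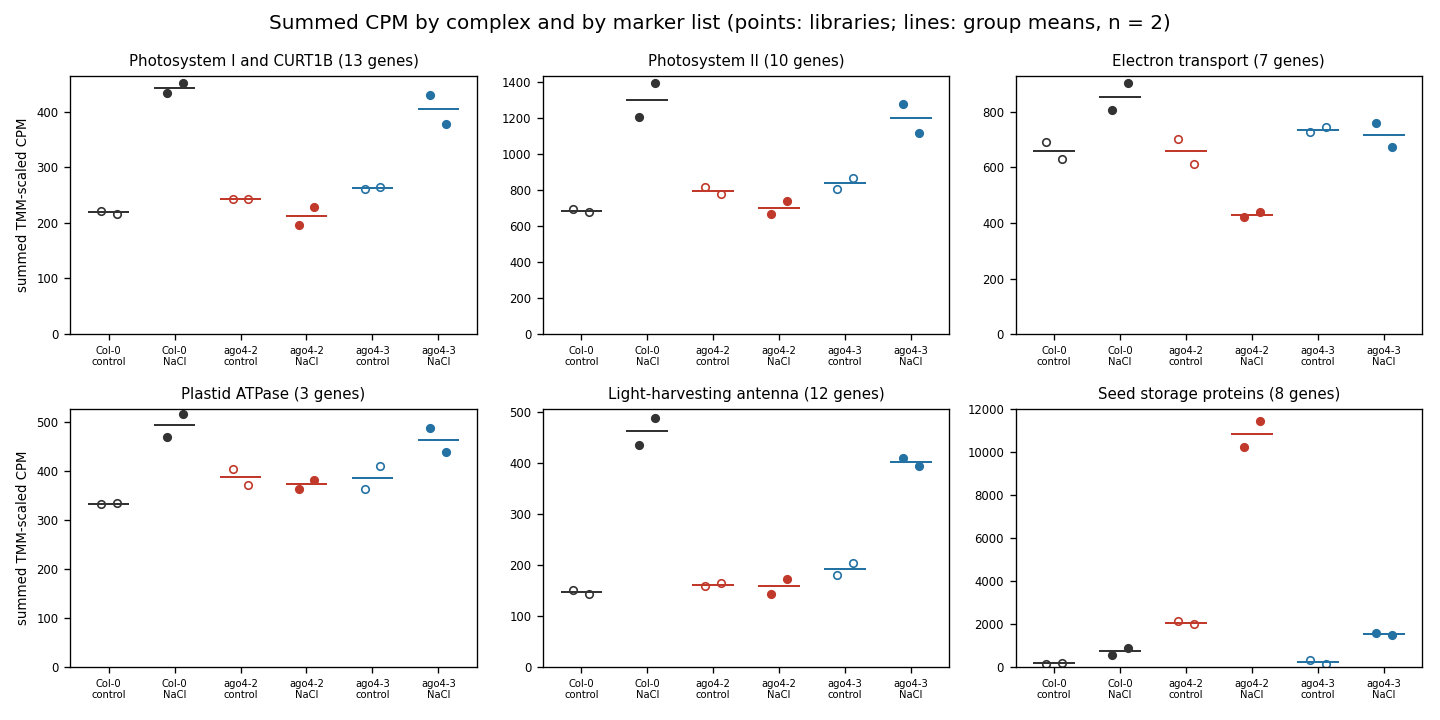
Summed TMM-scaled CPM (y axis, from 0) in each library for the 4 groups of members, the 12 measured antenna genes and the 8 storage genes, by genotype and medium (x axis; open control, filled NaCl, lines group means of 2 libraries). The 2 ago4-2 NaCl libraries hold the largest storage sums, 10228 and 11437 CPM, and electron transport sums of 419.9 and 439 CPM.

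Salt also moved some paralogs unequally. Per-library log2 ratios of the counts of each pair were compared between media by a two-sided exact permutation test that exchanged media within genotype, with p adjusted over the 6 pairs tested, and 0.00926 is the smallest p it can give. PSBO1 over PSBO2 was 0.40 and 0.41 in the Col-0 control libraries and −0.32 and −0.27 in Col-0 NaCl, −0.53 and −0.24, then −1.87 and −2.11 in ago4-2, and 0.05 and 0.20, then −0.77 and −0.67 in ago4-3. The ratio was lower under NaCl in all 3 lines with no overlap, by 1.05 on average (exact p = 0.00926, adjusted p = 0.0185), so that PSBO2 became the more counted copy under salt in every line. In ago4-2 it was so in control as well.

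PSAH1 over PSAH2 was −1.08 and −1.17 in Col-0 control and −0.67 and −0.66 in Col-0 NaCl, −1.21 and −0.86, then −0.27 and 0.79 in ago4-2, and −1.37 and −1.06, then −0.18 and −0.26 in ago4-3. PETE1 over PETE2 was −5.70 and −6.84 in Col-0 control and −4.79 and −4.77 in Col-0 NaCl, −6.57 and −5.72, then −4.25 and −4.01 in ago4-2, and −5.84 and −5.69, then −4.54 and −4.96 in ago4-3. Both ratios were higher under NaCl in all 3 lines with no overlap, by 0.91 and 1.51 on average (exact p = 0.00926 and adjusted p = 0.0185 for each). The other 3 pairs were not called: PSAD1 over PSAD2 changed by 0.34 (adjusted p = 0.0972), PSAE1 over PSAE2 by 0.05 (adjusted p = 0.750) and FNR1 over FNR2 by 0.14 (adjusted p = 0.411). PSAD1 over PSAD2 reached an adjusted p of 0.0185 without ago4-2 control replicate 2, and FNR1 over FNR2 one of 0.0417 without ago4-2 control replicate 1. Reads may be shared between paralogs, which would draw their counts together. In the annotation, 10 members overlap the body of another gene, by 2 bases (PSAD2) to 788 bases (PSAH1), and the sources used here do not say whether counting used strand.

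**Figure D4:**
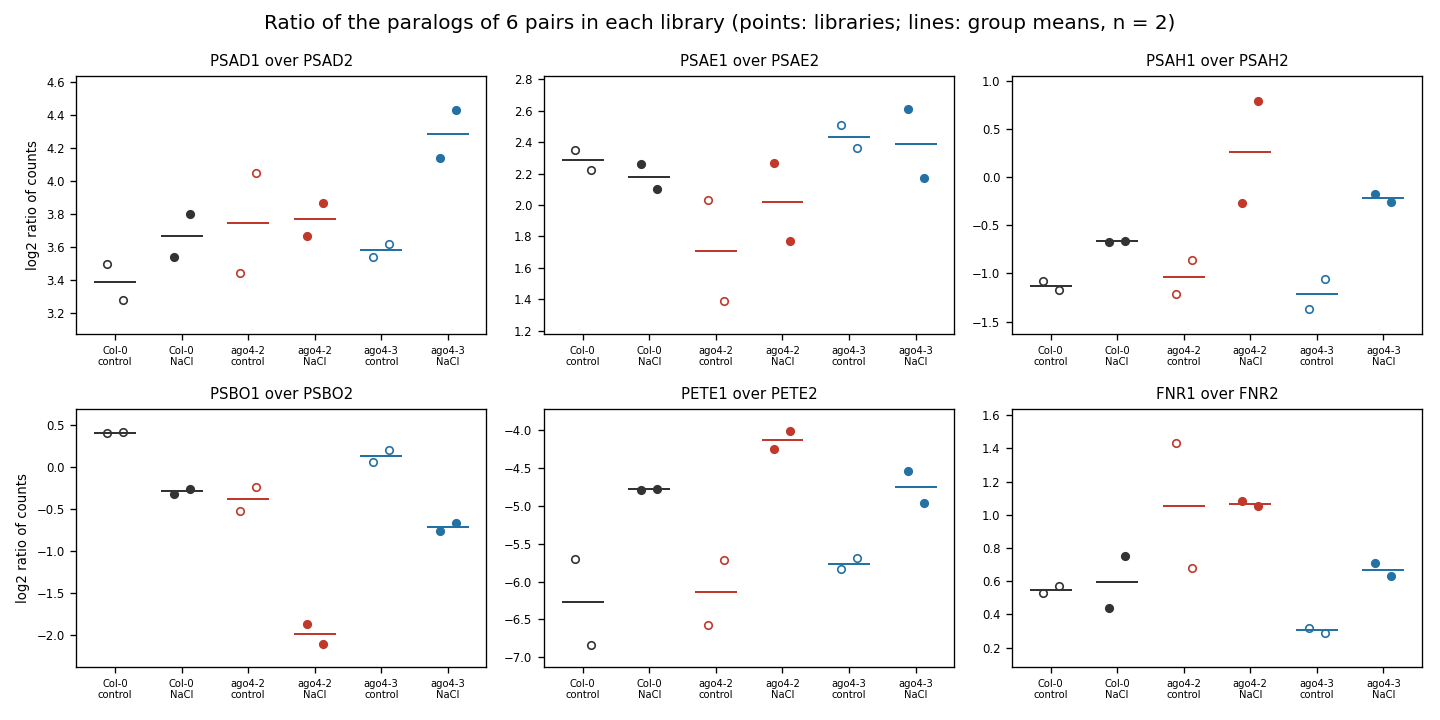
Log2 ratio of the counts of the first over the second paralog (y axis, its own range in each panel) in each library, by genotype and medium (x axis; open control, filled NaCl, lines group means of 2 libraries). PSBO1 over PSBO2 is lower on NaCl in each line, down to −2.11 in ago4-2, and PSAH1 over PSAH2 and PETE1 over PETE2 are higher.

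The ago4-2 response was compared with that of Col-0 in the same fit, and it was lower for 29 members and higher for 0, where 2.59% of all genes were lower and 1.84% higher. The members' median difference was −1.33 on the log2 scale, against −0.02 for all genes, and all 33 values were below 0. The lower ones were 12 of 13 in photosystem I (median −1.82), 10 of 10 in photosystem II (−1.33), 5 of 7 in electron transport (−0.89) and 2 of 3 in the ATPase (−0.71). The smallest adjusted p belonged to PSAD1 (−2.62 ± 0.19, adjusted p = 4.86e-06), whose libraries are given above, and to PSBP1 (−1.62 ± 0.14, adjusted p = 1.82e-05), with PETE2 at −1.98 ± 0.17. FNR2, PETE1, ATPG and PSAK were not called. Without Col-0 control replicate 2 the count was 19, and 19 members were called whichever library was left out.

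For ago4-3 the difference from the Col-0 response was called for 0 of 33 members, with all 33 values below 0 and a median of −0.50. At an unadjusted p under 0.05 there were 20 members and 981 of all 17751 genes, and the background of edgeR calls was 0.0113% in each direction. DESeq2 called 2 members lower, but its own share over all genes is not given here, so that count has no background to be read against. The smallest adjusted p were those of PSBQ1 (−0.65 ± 0.12, adjusted p = 0.0872) and PSAG (−1.33 ± 0.27, adjusted p = 0.110). Both differences were taken from the same Col-0 libraries.

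On control medium, ago4-2 held more than Col-0 of 9 members and less of 1, against a background of 5.22% higher and 3.22% lower. PSAD1 was higher by 0.94 ± 0.14 (adjusted p = 0.000427), the 1 call that held whichever library was left out, and PSBR by 0.71 ± 0.14 (adjusted p = 0.00481). The others higher were PSAH2 (1.19 ± 0.25), PSAH1 (1.34 ± 0.37), PSBO2 (0.56 ± 0.12), PETE2 (0.46 ± 0.12), PSBTN (0.46 ± 0.14), ATPD (0.42 ± 0.12) and PSBP1 (0.38 ± 0.10), and FNR2 was lower (−0.60 ± 0.16). The 9 higher calls became 2 if Col-0 control replicate 1 was left out, 1 if it was Col-0 control replicate 2, 5 if it was ago4-2 control replicate 1, and 4 when fitted on the groups compared alone, and the lower call ended in each of these 4 settings.

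In ago4-3 on control medium 3 members were higher than in Col-0 and 0 lower, where the background was 0.851% and 0.806%. They were PSAG (1.01 ± 0.20, adjusted p = 0.0157), PSAH2 (1.19 ± 0.25, adjusted p = 0.0209) and PSBO2 (0.56 ± 0.12, adjusted p = 0.0216), each with both ago4-3 libraries above both of Col-0. No call remained when either Col-0 control library or ago4-3 control replicate 2 was left out. The count was 7 without either ago4-2 control library, 6 with DESeq2 and 8 when fitted on the groups compared alone. The background above belongs to the main fit and not to these alternatives.

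Under NaCl, ago4-2 held less than Col-0 of 30 members and more of 0, against a background of 14.4% lower and 14.9% higher, with a median of −1.23. The smallest adjusted p were those of PSBO1 (−2.28 ± 0.15, adjusted p = 7.67e-08) and PSBQ1 (−1.3 ± 0.09, adjusted p = 1.08e-07), and PSAL showed the largest difference (−2.50 ± 0.20). All 8 storage genes were higher in ago4-2 than in Col-0 on both media, with median log2 differences of 3.49 in control and 3.55 under NaCl, and their part in the result was not tested. PSAH1 (−0.48 ± 0.33), PETE1 (−0.86 ± 0.34) and ATPG (−0.28 ± 0.10) were not called. For ago4-3 under NaCl, 1 member was lower than in Col-0 and 0 higher, against 0.648% and 0.541%. It was PSBQ1 (−0.46 ± 0.09, adjusted p = 0.0148), lost when fitted on the groups compared alone and without Col-0 NaCl replicate 2, ago4-3 NaCl replicate 1 or ago4-3 NaCl replicate 2, and next came FNR1 (−0.36 ± 0.11, adjusted p = 0.179).

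Between the mutants, ago4-3 held more than ago4-2 of 5 members in control and less of 0, against a background of 3.79% higher and 5.21% lower. They were PSBS (0.64 ± 0.10), FNR2 (0.82 ± 0.16), PSAL (0.95 ± 0.20), PSAK (1.48 ± 0.38) and PSBO1 (0.51 ± 0.14), and 3 remained called without ago4-2 control replicate 1 or without ago4-3 control replicate 2, and 1 on the groups compared alone. Under NaCl 30 members were higher in ago4-3 and 0 lower, where the background was 9.89% and 11.0%, with PSBO1 (1.83 ± 0.15) and PSAD1 (1.57 ± 0.13) at the smallest adjusted p.

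Some members lie between genes that were nearly silent either in a mutant or in Col-0 and not in the other. Of genes that averaged at least 5 CPM in ago4-2 or Col-0 and under 0.5 CPM in the other, 14 were on chromosome 4 between 1961126 and 15566971, 8 on chromosome 2, 6 on chromosome 3 and 1 on chromosome 5. PSAE1, PSAL, PSBQ1, PSBQ2, ATPC1 and ATPD lie within that stretch of chromosome 4, PSAE2 and PSBX between the outermost genes on chromosome 2 (1525029 to 9049404) and PSBO2 between those on chromosome 3 (10547441 to 19529062). For ago4-3 the same count was 3 on chromosome 1 (8829564 to 22061516), with PSAF, PSAG, PSAH2, PSAK and PSBS between them. It was 3 on chromosome 2 (183940 to 9049404) with PSAE2 and PSBX between them, 2 on chromosome 3 and 1 each on chromosomes 4 and 5. The chromosome 5 gene (14083388 to 14089891) was the same for both mutants. The mutants also shared the outer end on chromosome 2 (9049404) and the first start on chromosome 3 (10547441). Not all of these genes are thus particular to 1 mutant, and shared ones bound the stretches in which PSAE2, PSBX and PSBO2 were placed. For these members, linked sequence differences and the mutant allele cannot be told apart in comparisons of lines. Members outside these stretches are not shown to be free of such differences. Among them, PETM, PSBW and CURT1B lie on chromosome 2, as AGO4 does. Of all members, PETM (AT2G26500) has the locus number nearest to that of AGO4 (AT2G27040).

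Other genes of the chloroplast were followed for context, and their counts stand against shares over all genes of 10.7% higher and 7.42% lower in Col-0, 17.4% and 17.8% in ago4-2, and 12.6% and 10.4% in ago4-3. Of 24 assembly factors, 15 rose and 0 fell under salt in Col-0, 4 rose and 6 fell in ago4-2, and 11 rose and 1 fell in ago4-3. PSB27, which helps assemble photosystem II, rose in Col-0 (1.06 ± 0.12, adjusted p = 3.43e-05) and ago4-3 (0.94 ± 0.12), with HCF136 (0.66 ± 0.09) in Col-0 and PYG7 (0.59 ± 0.10) in ago4-3. In ago4-2 the smallest adjusted p were those of the membrane insertase gene ALB3, which rose (0.64 ± 0.09), and of PSA2, which fell (−0.58 ± 0.11).

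Of the further 19 transport genes measured among 20 listed, 9 rose and 0 fell in Col-0, 7 rose and 4 fell in ago4-2, and 8 rose and 1 fell in ago4-3. The smallest adjusted p belonged to TROL, which tethers FNR (1.22 ± 0.13), and CURT1A (0.81 ± 0.11) in Col-0 and to TAP38 (0.88 ± 0.14) and CURT1A (0.65 ± 0.11) in ago4-3, and in ago4-2 the minor ferredoxin FED1 (−1.20 ± 0.13) and the cyclic electron flow gene PGR5 (−0.86 ± 0.13) fell. Of 19 measured regulators among 21 listed, 10 rose and 1 fell in Col-0, 4 rose and 4 fell in ago4-2, and 5 rose and 1 fell in ago4-3. GLK2, a transcription factor of chloroplast development, rose in Col-0 (0.85 ± 0.12) and ago4-3 (0.77 ± 0.12), with the sigma factor gene SIG4 (0.85 ± 0.14) in Col-0 and GLK1 (1.05 ± 0.17) in ago4-3. In ago4-2 the light-signalling gene HYH fell (−1.39 ± 0.12) and BBX21 rose (0.52 ± 0.09).

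The antenna genes had 11 of 12 measured members higher in Col-0 and 0 lower, 1 higher and 2 lower in ago4-2, and 9 higher and 0 lower in ago4-3, with the smallest adjusted p for LHCB1.3 (2.16 ± 0.11) and LHCA4 (2.03 ± 0.12) in Col-0 and for LHCA4 (1.61 ± 0.12) and LHCB1.3 (1.41 ± 0.11) in ago4-3. In ago4-2, LHCB1.2 rose (0.66 ± 0.18) and LHCB1.5 fell (−2.0 ± 0.56). The antenna difference between the ago4-2 and Col-0 responses was lower for 12 of 12, with a median of −1.92, beside −1.33 for the members and −0.02 for all genes. Of 5 genes of Rubisco and its activase RCA, 2 rose in Col-0 (RBCS1A by 1.02 ± 0.17 and RBCS2B by 0.97 ± 0.17), 1 rose and 3 fell in ago4-2 (RCA by −1.26 ± 0.10 and RBCS3B by −1.38 ± 0.11), and 2 rose and 3 fell in ago4-3 (RCA by −0.83 ± 0.10 and RBCS3B by −0.61 ± 0.11). Of 32 plastid-encoded loci listed for the same complexes, 18 were measured in these polyadenylated libraries. None of them was called in Col-0 or ago4-2 and 5 were lower in ago4-3, but their sum ranged from 26.1 to 501 CPM and differed as much within groups, as with 501 and 43.2 CPM in the ago4-2 control pair.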

How the data were processed

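Polyadenylated RNA of 12 libraries was analysed, 2 in each of 6 groups. The authors deposited 9 comparison tables with raw read counts per gene and library, per the file headers, and their own log2 fold changes and false discovery rate p-values for each comparison. The submitters' processing notes name SAMtools, Picard, DESeq, edgeR and the build TAIR10, and the aligner, the counting tool and its use of strand are not given in the sources used here. In each library 72.35% to 87.65% of counts from 1 to 20 were even, so a read pair may have been counted as 2 reads, and library totals and raw counts may then overstate depth. The 36 pseudo-count columns of the tables were not used. The tables were joined by locus identifier, with 0 disagreeing values, which left 17751 of 18542 genes with counts in all 12 libraries, and 791 genes, PSBQ2 among them, were left out of the fit. Because the tables omit some genes, the genes tested were already filtered by the authors.

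The main test was edgeR's quasi-likelihood test (edgeR 4.0.16, limma 3.58.1, R 4.3.3) with TMM scaling, 6 group coefficients and Benjamini-Hochberg adjustment over all 17751 genes in each of 11 contrasts, with a threshold of 0.05. Its filter on low counts removed 0 genes. SE was taken from the fold change and the F statistic, and CPM are counts scaled to TMM-adjusted library size. The alternatives were DESeq2 1.42.0 as a tool, DESeq2 size factors, no filter, a mean of at least 10 CPM, the replicate number as a block, a fit on the groups compared alone and each library left out. Paralog ratios used log2 of counts plus 0.5, and 6 of 7 listed pairs could be tested, since PSBQ2 lacked counts in all groups. On simulated counts for the Col-0 salt comparison over 17751 genes the fit called 97 of 100 genes changed 2-fold, 100 of 100 changed 4-fold and 15 of 17551 unchanged genes. The simulated counts were drawn with the spread that the same fit had estimated, and far fewer genes were changed than were called in the data. They held no uneven pair like that of ago4-2 control and no doubled counts, so the rates apply only under the assumptions of the fit. The changed genes were drawn only from genes above a floor on mean CPM. PSAD2, PSAE2, PSAH1, PSAH2, PSAK, PSAO and PETE1 averaged below that floor, so the rates for changed genes do not cover them.

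The members and gene lists were chosen with earlier results of these data known. Every member was named, and those described in full were the 3 with the smallest adjusted p in each direction of each salt comparison, the 2 with the smallest adjusted p in each comparison with Col-0 and each difference of responses, and the paralog pairs. From the other lists, apart from the markers of seed tissues and cell types, the 2 genes with the smallest adjusted p in each salt comparison were named. Plastid-encoded genes were counted and not named. Upstream sequences and gene positions came from RefSeq TAIR10.1. One upstream sequence is not reported here.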

Additional observations from a re-analysis of the deposited data

Results flagged for a closer look

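For 29 members the salt response differed between ago4-2 and Col-0 in the test of the difference itself (edgeR, adjusted over 17751 genes). Values in brackets are the ago4-2 response minus the Col-0 response on the log2 scale, with 2 libraries in each of the 4 groups. In photosystem I these were PSAH2 (−2.68), PSAG (−2.67), PSAD1 (−2.62), PSAD2 (−2.38), PSAL (−2.13), PSAE2 (−2.02), PSAH1 (−1.82), PSAO (−1.80), PSAF (−1.62), PSAE1 (−1.60), PSAN (−1.3) and CURT1B (−0.49). In photosystem II they were PSBO1 (−2.07), PSBP1 (−1.62), PSBY (−1.49), PSBQ1 (−1.34), PSBTN (−1.33), PSBR (−1.33), PSBO2 (−1.14), PSBW (−0.87), PSBS (−0.78) and PSBX (−0.76). In electron transport they were PETE2 (−1.98), PETM (−0.95), FED2 (−0.89), FNR1 (−0.78) and PETC (−0.61), and in the ATPase ATPD (−0.84) and ATPC1 (−0.71). Of these, 19 kept the call whichever library was left out, and FED2, PSBX, PETM, PSBW, CURT1B, PSAH1, PETC, ATPC1, ATPD and FNR1 did not.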

How the results depend on the processing

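Among 172 calls on single members, all 172 held in DESeq2, 169 held with DESeq2 size factors, 165 with the replicate block and 153 when fitted on the groups compared alone. With one library left out, 1878 held and 186 were lost over all calls and libraries, and none reversed in any setting. Many of these omissions took a library outside the groups compared. Under salt, 24 of 29 higher calls in Col-0, 8 of 14 lower in ago4-2 and 11 of 19 higher in ago4-3 survived every omission. For ago4-2 against Col-0, 1 of 9 higher calls in control and 27 of 30 lower under NaCl did so. No same-numbered libraries deviated together in every pair of groups (correlations −0.411 to 0.251), so the numbers were not taken to pair the samples. With the replicate block the count of members lower in ago4-3 than in ago4-2 in control was 1 in place of 0. At a mean of at least 10 CPM, 12 members rose in ago4-3 under salt and 3 were higher in ago4-3 than in ago4-2 in control, since fewer members were tested. With that filter 132 calls held and 1 was lost, that of PSBTN in ago4-2 against Col-0 in control (edgeR adjusted p = 0.0535). Fitted on the groups compared alone, ago4-2 against Col-0 in control gave 4 higher and 0 lower, ago4-3 against Col-0 gave 8 higher in control and 0 lower under NaCl, ago4-3 against ago4-2 in control gave 1 higher, and the ago4-3 difference gave 1 lower. DESeq2 gave 6 members higher in ago4-3 than Col-0 in control, 2 lower in ago4-3 than ago4-2 in control and 2 lower for the ago4-3 difference. Apart from the members left untested by the filter at 10 CPM, the cause of these changes was not tested. Shares over all genes are given for the main fit only, so member counts from the alternative fits have no background of their own.

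Leaving out each library gave 25 to 30 members higher under salt in Col-0, 0 to 2 higher and 9 to 15 lower in ago4-2, and 11 to 21 higher and 0 to 1 lower in ago4-3. In control it gave 1 to 9 higher and 0 to 1 lower for ago4-2 against Col-0, 0 to 7 higher for ago4-3 against Col-0, and 3 to 5 higher and 0 to 2 lower for ago4-3 against ago4-2. Under NaCl it gave 27 to 32 lower for ago4-2 and 0 to 1 lower for ago4-3 against Col-0, and 20 to 31 higher for ago4-3 against ago4-2, with 20 without ago4-2 NaCl replicate 1. The difference of responses gave 19 to 29 lower for ago4-2 and 0 to 1 for ago4-3. The paralog changes ranged from 0.23 to 0.44 for PSAD1 over PSAD2, 0.74 to 1.09 for PSAH1 over PSAH2, −1.1 to −1.0 for PSBO1 over PSBO2, 1.32 to 1.70 for PETE1 over PETE2 and 0.01 to 0.27 for FNR1 over FNR2. PSAE1 over PSAE2 ranged from −0.05 to 0.16 and was −0.05 without ago4-2 control replicate 2, −0.03 without ago4-2 NaCl replicate 1 and −0.02 without ago4-3 NaCl replicate 1. Detection at low levels, near 1 CPM for PSAH1, PSAK and PETE1, was not measured, nor was it for PSAD2, PSAE2, PSAH2 and PSAO.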
